A study of Mus musculus with 16 samples.

Results

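The 64 odorant receptor genes described here are those on mouse chromosome 11 whose symbols run from Olfr312 to Olfr332, from Olfr376 to Olfr412 or from Olfr1371 to Olfr1397. They were selected by symbol, with earlier results of these data known, and they make up 64 of the 19505 genes measured. By number range, 22 fell in Olfr1371 to Olfr1397, 18 in Olfr312 to Olfr332 and 24 in Olfr376 to Olfr412. The RefSeq gene table places all 64 on chromosome 11 and lists 82 symbols under the same rule, of which 18 are not analysed here. One of the 64, Olfr1372-ps1, is annotated as a pseudogene. The 1025 odorant receptors outside the rule, 16 of them on chromosome 11, serve for comparison.

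The mice carried S100a5-tauGFP, a green fluorescent reporter of S100a5, on a C57BL/6 background. The S100a5 protein binds calcium, and its gene is transcribed in olfactory sensory neurons according to their activity, so the reporter marks recently active neurons. All groups carried the reporter. The 24 mice, of both sexes and aged 7 to 12 weeks, each spent 40 h alone in a chamber under clean air at 3.1 L/min. From 26 h on they received, every 20 min for 10 s, filtered air in the vehicle group or the odorant whiskey lactone, an oak wood aroma compound, in the odor group. Olfactory mucosa of 3 mice was pooled, and fluorescence sorting parted each pool into 2 fractions. The 4 vehicle and 4 odor pools thus gave 16 Affymetrix arrays in 4 groups of 4.

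Sample titles and the cell type field name the sorted fraction in opposite ways in all 16 arrays. Groups are named by title here, and a fraction difference is the array titled GFP+ minus the array titled GFP- of the same pool, in log2 units. Taking the cell type field instead would turn the sign of every fraction difference. S100a5 itself was lower in the array titled GFP+ in 8 of 8 pools (vehicle -1.23 ± 0.09, odor -1.34 ± 0.09, SE; limma, Benjamini-Hochberg adjusted p = 4.78e-07 and 2.07e-07). Omp, which marks mature olfactory sensory neurons, stood at 18.43 to 18.83 in all 16 arrays. Array medians were 6.62 to 7.13 over all genes, and the medians of the 5222 negative control features, used as the measure of background, were 4.98 to 5.59. Of the 64 receptors, 44 exceeded the control median of their array in all 16 arrays, 16 in 7 to 15 arrays and 4 in no more than 1. None was left out for low signal. Precision is limited by having 4 arrays in a group.

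Odorant receptors are G protein-coupled receptors of the cilia of olfactory sensory neurons. Their genes lie in tandem clusters, and a mature neuron expresses a single allele of a single receptor gene. In sorted tissue the signal of a receptor therefore depends on how many neurons chose it and on how much of its RNA each of them holds, and these cannot be told apart here.

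In vehicle pools the chromosome 11 receptors lay on both sides of the sort. Of the 64, 20 had higher values in the arrays titled GFP+ and 23 lower ones (limma with the pool as a block, adjusted p below 0.05 over all genes), against 12.3% of all genes higher and 13.6% lower. The 21 others did not pass. In odor pools 23 were higher and 25 lower, against 12.8% and 14.7% of all genes. Among the 1025 receptors outside the rule, 240 were higher and 495 lower in vehicle pools, and 229 and 505 in odor pools. The median fraction difference of the 64 was -0.24 in vehicle and -0.32 in odor pools, beside -0.63 and -0.67 for the other receptors and -0.14 and -0.15 for all genes. Differences of 8-fold or more were found for 12 higher and 1 lower receptor in vehicle pools, and for 11 and 2 in odor pools, counted on fitted values. Among the 1025 receptors outside the rule these counts were 109 and 79 in vehicle and 107 and 87 in odor pools. Among all 19505 genes they were 523 and 82, and 574 and 90. For Olfr380 and Olfr391 in vehicle pools, and Olfr391 and Olfr399 in odor pools, the dim fraction gives only a bound. For others only some of the 4 arrays titled GFP- exceeded the control median, so that their fitted differences are set in part against background. In vehicle pools these were 1 array for Olfr390, Olfr397 and Olfr399, 2 for Olfr1384 and 3 for Olfr411, and in odor pools 1 for Olfr380 and Olfr397 and 3 for Olfr390. The 4 arrays of either fraction did not overlap for 41 of the 64 in vehicle pools and 40 in odor pools, compared with 24.8% and 26.3% of all genes.

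The balance of higher and lower receptors moved with the scaling of the arrays. Centring each array on the median of all genes gave 19 higher and 33 lower in vehicle pools and 18 and 37 in odor pools, as it moved the median of all genes to -0.51 and -0.53. Centring on the receptors outside the rule gave 28 and 16 in vehicle pools and 24 and 17 in odor pools. With arrays centred on mature neuron genes the counts were 23 and 19, and 24 and 22. Of the 43 receptors called in vehicle pools, 42 kept their sign under every one of up to 21 alternative settings, all but Olfr394. Of the 48 called in odor pools, 44 did, all but Olfr1378, Olfr1391, Olfr394 and Olfr395. In both cases the sign could change only under another scaling or without a pool of the same treatment. The other settings left the fitted difference as it was.

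**Figure D1:**
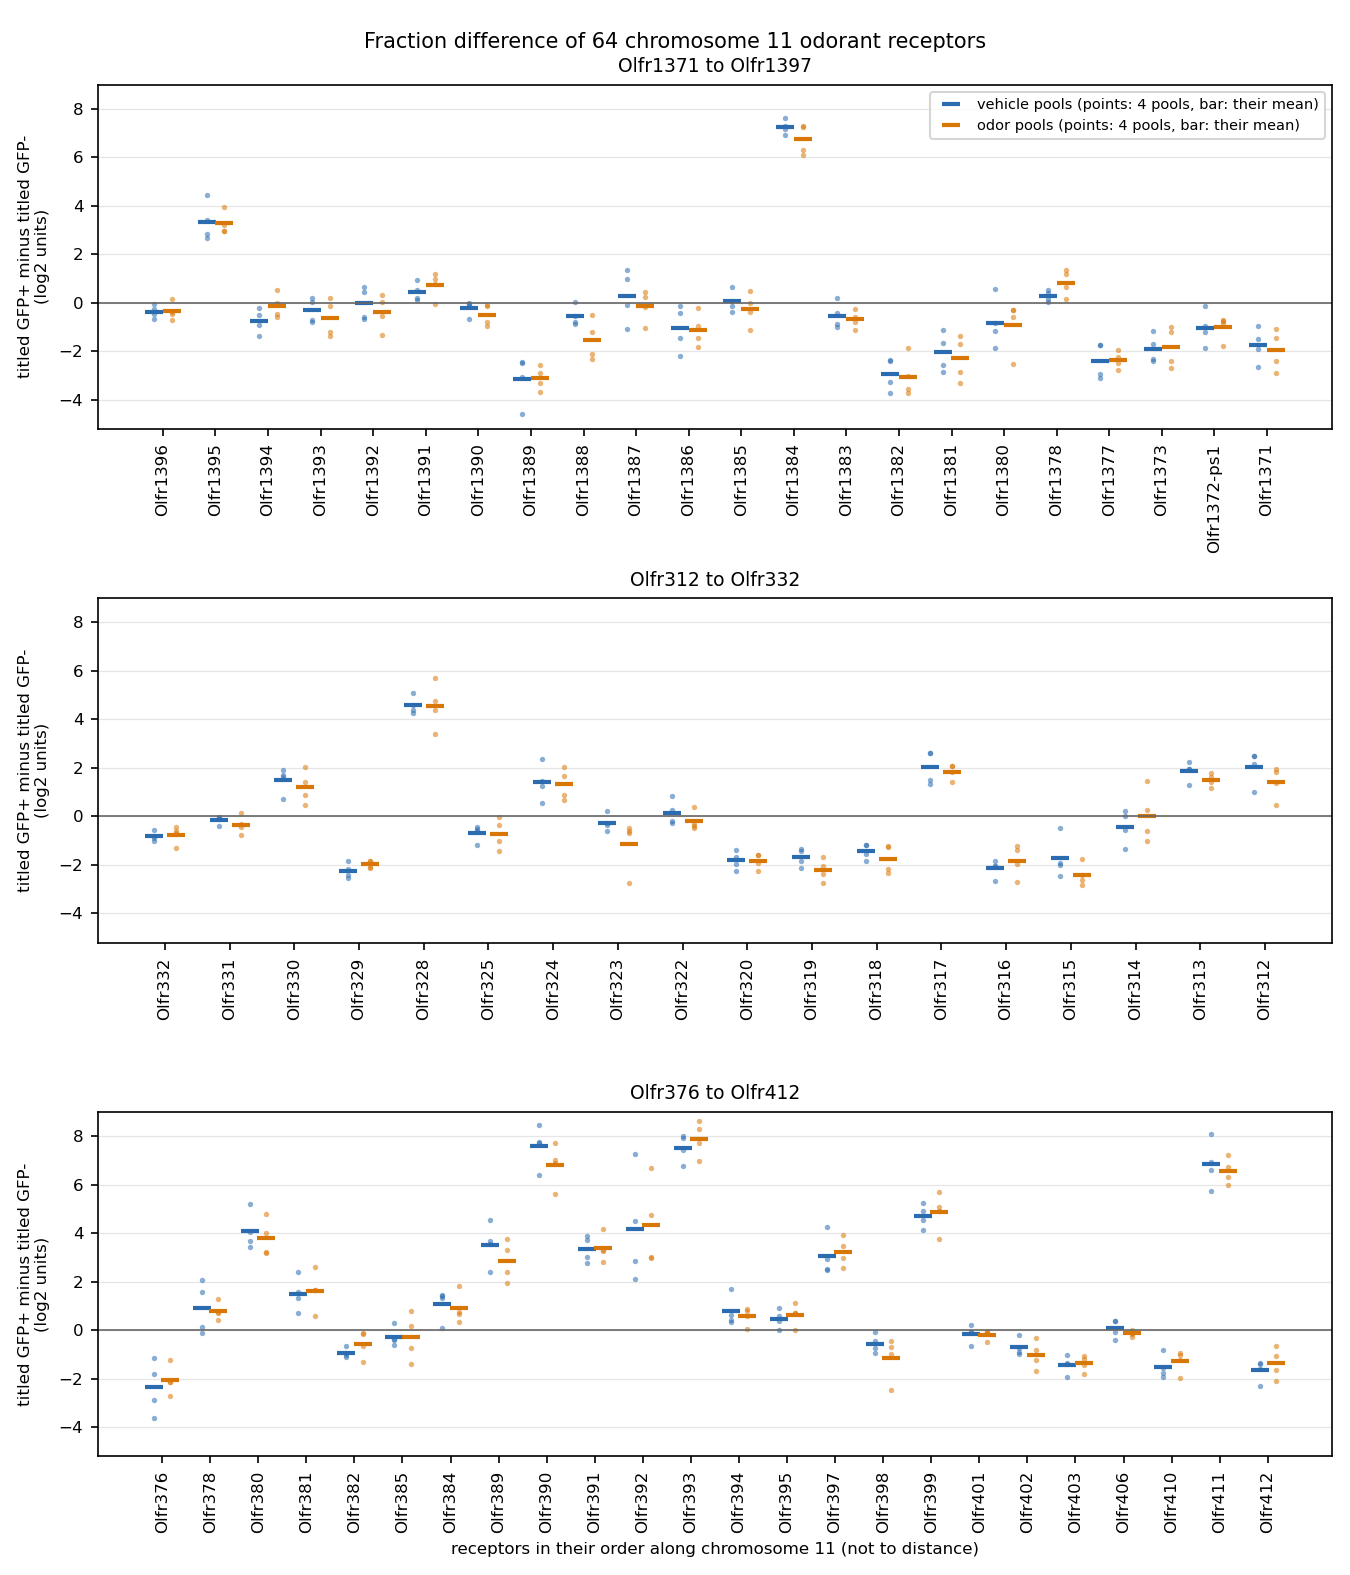
Fraction difference (array titled GFP+ minus array titled GFP- of a pool, log2 units) of the 64 receptors in their order along chromosome 11, with 1 panel per number range, 4 points per treatment for the pools and a bar for their mean. Olfr390, Olfr393, Olfr1384 and Olfr411 stand above 6 in both treatments, the median is highest in the range Olfr376 to Olfr412, and vehicle and odor bars lie close together for most receptors.

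The receptors of the range Olfr376 to Olfr412 included most of the large positive differences. Olfr393, an odorant receptor in the middle of this cluster, had log2 values of 14.22, 13.49, 14.04 and 14.62 in the vehicle arrays titled GFP+ and 7.43, 5.57, 6.62 and 6.61 in those titled GFP-, for replicates 1 to 4. Its odor arrays stood at 14.62, 13.62, 14.02 and 14.56 and at 6.34, 6.65, 6.29 and 5.93. All 8 arrays titled GFP+ thus lay above all 8 titled GFP-. The latter exceeded the control median but not the 95th percentile of the negative controls (9.09 to 10.11 over the arrays). The fold values below are therefore set against a fraction within the range of the controls. The fraction difference was 7.53 ± 0.25 in vehicle pools (185-fold, SE; limma adjusted p = 1.58e-10) and 7.90 ± 0.25 in odor pools (239-fold, 1.06e-10).

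Olfr390, a near neighbour of Olfr393, stood at 12.84, 13.26, 12.85 and 12.95 in vehicle arrays titled GFP+ and at 5.15, 6.87, 5.07 and 4.48 in those titled GFP-. The odor values were 12.40, 12.96, 13.28 and 12.30 against 6.77, 6.07, 6.28 and 4.60. The fractions did not overlap, and the arrays titled GFP- exceeded the control median in 1 of 4 vehicle and 3 of 4 odor pools. The fitted difference, against a dim fraction near background, was 7.59 ± 0.32 (192-fold; limma adjusted p = 1.74e-09) in vehicle pools and 6.81 ± 0.32 (112-fold, 4.42e-09) in odor pools. Olfr411 had 13.44, 12.43, 13.95 and 13.53 against 6.84, 6.71, 6.99 and 5.44 in vehicle pools, a difference of 6.84 ± 0.29, and 13.08, 12.71, 13.67 and 13.41 against 6.33, 6.72, 6.44 and 7.07 in odor pools, a difference of 6.57 ± 0.29. Its fractions were likewise apart in every pool.

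Along the chromosome, Olfr389, Olfr390, Olfr391, Olfr392, Olfr393 and Olfr394 follow each other, and each was higher in the arrays titled GFP+ in both treatments. Their vehicle differences were 3.53 ± 0.32, 7.59 ± 0.32, 3.34 ± 0.25, 4.19 ± 0.71, 7.53 ± 0.25 and 0.78 ± 0.19 (SE). Olfr394 lost its call in odor pools without odor pool 2, 3 or 4 (0.48 to 0.59, limma adjusted p = 0.0799 to 0.139), and its sign turned with housekeeping centring in both treatments (-0.015 and -0.25). Olfr391 was at or below the control median in every array titled GFP-, so it was at least 3.83-fold higher in vehicle and at least 4.46-fold higher in odor pools, where the bound sets the mean of the bright group against the control medians. Beyond Olfr395, which was below the control median in all 16 arrays, Olfr397 (3.04 ± 0.29 and 3.24 ± 0.29, with 1 of 4 arrays titled GFP- above the control median in each treatment) and Olfr399 (4.70 ± 0.27 in vehicle pools, at least 20.4-fold in odor pools) were higher as well. Olfr399 had 9.99, 9.13, 10.03 and 10.11 against 5.45, 4.99, 5.13 and 4.88 in vehicle pools, so that its arrays titled GFP- lay at about the background while those titled GFP+ did not. Nearer the start of the range, Olfr380 (at least 10.2-fold in vehicle pools) and Olfr381 (at least 1.52-fold) were higher, while Olfr376 was lower (at least 2.70-fold and at least 2.77-fold). Olfr380 and Olfr381 were called higher in odor pools as well, where 1 of 4 arrays titled GFP- of each exceeded the control median.

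At the far end of the same cluster most of the called receptors lay on the other side. Olfr402, Olfr403, Olfr410 and Olfr412 were lower in the arrays titled GFP+ in both treatments, with differences of -0.70 to -1.66 in vehicle pools and -1.01 to -1.37 in odor pools. Olfr402 lost its vehicle call without vehicle pool 1, 2 or 4 (limma adjusted p = 0.0931 to 0.128). Olfr401 (-0.15 and -0.18) and Olfr406 (0.07 and -0.13), at the same end, passed in neither treatment. Olfr411 was the exception among the called receptors there. With its neighbours it made the sharpest steps between adjacent members: 8.50 log2 units separated the vehicle differences of Olfr411 and Olfr412, and 8.35 those of Olfr410 and Olfr411. Over the whole range of 24, 12 receptors were higher and 6 lower in vehicle pools (median 0.85) and 13 and 6 in odor pools (median 0.72). Of all genes, 12.3% were higher and 13.6% lower in vehicle pools, and 12.8% and 14.7% in odor pools. The median of the range was 0.050 in vehicle and -0.12 in odor pools after housekeeping centring, and positive under the other scalings.

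For 54 of the 64 receptors RefSeq (GRCm38.p6) gives a window of 300 bases, 250 before and 50 after the annotated start. In 37 of these windows the annotated start is the ATG of the coding sequence, so the window then holds the bases before the coding sequence and need not hold the promoter. The windows of the receptors with the largest differences are shown here, 5′ to 3′ on the strand of the gene, with the ATG and each TAATTA, the letters that homeodomain factors such as Lhx2 recognise, in capitals. Their positions are Olfr390 chr11:73786690-73786989 (plus strand), Olfr393 chr11:73848074-73848373 (minus strand), Olfr380 chr11:73454161-73454460 (minus strand) and Olfr1384 chr11:49513368-49513667 (plus strand) for receptors higher in the arrays titled GFP+. Olfr380 is shown because its window is the most like that of Olfr393, 72.2% identical over the aligned length.
Olfr390: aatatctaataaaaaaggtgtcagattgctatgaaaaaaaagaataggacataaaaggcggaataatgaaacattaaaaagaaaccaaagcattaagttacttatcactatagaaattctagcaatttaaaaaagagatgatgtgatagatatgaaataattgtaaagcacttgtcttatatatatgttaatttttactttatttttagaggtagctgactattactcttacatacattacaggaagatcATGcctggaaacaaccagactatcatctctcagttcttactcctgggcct
Olfr393: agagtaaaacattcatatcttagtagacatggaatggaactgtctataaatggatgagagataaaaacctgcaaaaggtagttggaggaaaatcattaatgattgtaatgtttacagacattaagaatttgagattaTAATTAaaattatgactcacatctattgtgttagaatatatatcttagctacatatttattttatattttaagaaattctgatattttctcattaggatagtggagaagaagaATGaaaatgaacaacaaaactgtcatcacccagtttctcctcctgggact
Olfr380: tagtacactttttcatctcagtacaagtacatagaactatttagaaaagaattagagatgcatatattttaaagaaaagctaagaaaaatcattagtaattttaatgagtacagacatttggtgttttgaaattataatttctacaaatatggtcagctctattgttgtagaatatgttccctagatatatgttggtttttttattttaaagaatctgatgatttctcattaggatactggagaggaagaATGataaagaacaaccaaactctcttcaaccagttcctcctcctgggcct
Olfr1384: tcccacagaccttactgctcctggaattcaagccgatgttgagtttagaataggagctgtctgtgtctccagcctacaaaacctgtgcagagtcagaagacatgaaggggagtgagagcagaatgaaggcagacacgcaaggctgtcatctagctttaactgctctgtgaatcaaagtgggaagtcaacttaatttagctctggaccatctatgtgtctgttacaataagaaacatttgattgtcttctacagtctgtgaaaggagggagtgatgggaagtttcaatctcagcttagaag

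Searched on both strands, TAATTA (a palindrome, so both strands give the same match) was found in 11 of the 54 windows (20.4%), in 165 of 888 windows of receptors outside the rule (18.6%) and in 5.31% of 27025 windows of all genes. Of 17 windows of receptors higher in vehicle pools 3 held it, of 17 of lower receptors 5, and of 20 of receptors not called 3. CCCNNGGG, letters of the Ebf factors, was found in 2 of the 54 windows (3.70%), in 3.04% of the other receptors and in 13.4% of all genes, and TATAAA in 15 (27.8%), 42.0% and 14.2%. TAATTA and TATAAA can share bases, and a window counted once for each motif it held. A match describes these letters only.

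In the range Olfr1371 to Olfr1397, 16 of 22 receptors had a negative fraction difference in vehicle pools and 18 in odor pools. Most genes lay on this side too, 13102 and 13252 of all 19505. Called were 2 higher and 9 lower in vehicle pools (median -0.54) and 4 and 10 in odor pools (median -0.66). These are 9.09% and 40.9% in vehicle pools, beside 12.3% and 13.6% of all genes. In odor pools they are 18.2% and 45.5%, beside 12.8% and 14.7%. Olfr1389 had 7.21, 8.83, 8.89 and 8.79 in vehicle arrays titled GFP+ and 11.81, 11.33, 11.34 and 11.84 in those titled GFP-. Its odor values were 8.09, 8.93, 8.15 and 9.24 against 11.76, 11.49, 11.47 and 12.14. It was the only one of the 64 that was 8-fold or more lower in vehicle pools, at -3.15 ± 0.29 (8.88-fold; limma adjusted p = 2.85e-06), and it had -3.11 ± 0.29 in odor pools. Olfr1382 stood at 8.13, 9.22, 8.66 and 9.45 against 11.41, 11.61, 12.38 and 11.80 in vehicle pools, a difference of -2.93 ± 0.28, and at 7.87, 8.92, 9.08 and 9.55 against 11.60, 11.92, 12.65 and 11.42 in odor pools, one of -3.05 ± 0.28. For both receptors every array titled GFP+ was below every array titled GFP-. Olfr1377 (-2.38 ± 0.26 and -2.36 ± 0.26, with 1 of 4 arrays titled GFP+ above the control median in each treatment), Olfr1381 (-2.04 ± 0.32 and -2.30 ± 0.32), Olfr1373 (-1.90 ± 0.28 and -1.82 ± 0.28), Olfr1371 (-1.75 ± 0.30 and -1.96 ± 0.30) and the pseudogene Olfr1372-ps1 (-1.04 ± 0.23 and -1.02 ± 0.23) were lower in both treatments too.

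In this range Olfr1384 and Olfr1395 were called higher in both treatments. Olfr1378 (0.83) and Olfr1391 (0.73) were called higher in odor pools alone. Olfr1384 had 12.83, 12.90, 12.66 and 12.29 in vehicle arrays titled GFP+ against 5.68, 5.98, 5.03 and 5.01 in those titled GFP-. In odor pools it had 12.91, 13.18, 12.88 and 12.54 against 6.61, 5.88, 5.62 and 6.44. The fractions were apart in all pools, by 7.25 ± 0.21 (152-fold; limma adjusted p = 6.06e-11) and 6.74 ± 0.21 (107-fold, 9.25e-11). Olfr1395 was 10.1-fold and 9.64-fold higher, with 14.69, 13.82, 14.20 and 14.96 against 12.01, 10.42, 11.39 and 10.51 in vehicle pools. Its arrays titled GFP- were thus bright, unlike those of Olfr1384.

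The windows shown for lower receptors of this range lie at Olfr1389 chr11:49430177-49430476 (plus strand), Olfr1382 chr11:49534937-49535236 (plus strand) and Olfr1373 chr11:52145479-52145778 (minus strand). They hold no TAATTA, while the windows of Olfr1381 and Olfr1371, also lower and not shown, hold 2 and 1. That of Olfr1373 is shown beside Olfr1382 since 93.4% of their aligned bases are identical, the second highest value among 1431 pairs of windows, whose median was 47.6%.
Olfr1389: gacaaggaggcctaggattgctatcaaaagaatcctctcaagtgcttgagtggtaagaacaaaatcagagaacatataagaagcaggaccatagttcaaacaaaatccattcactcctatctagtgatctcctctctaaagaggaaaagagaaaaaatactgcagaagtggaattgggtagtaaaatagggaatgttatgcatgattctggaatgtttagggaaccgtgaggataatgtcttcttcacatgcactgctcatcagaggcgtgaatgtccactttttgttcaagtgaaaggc
Olfr1382: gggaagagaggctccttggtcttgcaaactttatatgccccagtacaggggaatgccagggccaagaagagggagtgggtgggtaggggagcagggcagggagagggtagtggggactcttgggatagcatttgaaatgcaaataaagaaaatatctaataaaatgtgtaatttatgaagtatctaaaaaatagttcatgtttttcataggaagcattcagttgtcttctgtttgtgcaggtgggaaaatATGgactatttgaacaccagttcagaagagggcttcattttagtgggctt
Olfr1373: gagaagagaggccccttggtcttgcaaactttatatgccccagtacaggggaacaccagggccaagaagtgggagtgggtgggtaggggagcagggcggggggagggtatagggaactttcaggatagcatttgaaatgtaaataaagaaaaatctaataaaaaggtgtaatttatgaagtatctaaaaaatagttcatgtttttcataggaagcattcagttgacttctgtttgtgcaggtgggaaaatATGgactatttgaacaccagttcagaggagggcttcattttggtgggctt

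Receptors with windows over 70% identical made up 11 pairs. Of these the most alike, Olfr1381 and Olfr1380 (94.7%), had vehicle differences of -2.04 and -0.82, of which the latter did not pass (limma adjusted p = 0.134). Olfr331 and Olfr325 (92.6%) had -0.14 and -0.69, and Olfr380 and Olfr381 (81.8%) were at least 10.2-fold and at least 1.52-fold higher in vehicle pools. Copies this alike may share probe sequence, which was not checked here, so the values of these pairs are uncertain as values of single genes.

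The range Olfr312 to Olfr332 was mixed. Of its 18 receptors, 6 were higher and 8 lower in vehicle pools (median -0.34) and 6 and 9 in odor pools (-0.52). Of all genes, 12.3% were higher and 13.6% lower in vehicle pools, and 12.8% and 14.7% in odor pools. Olfr328 had 12.99, 12.99, 13.43 and 13.01 in vehicle arrays titled GFP+ and 8.38, 8.61, 9.17 and 7.90 in those titled GFP-. It was 24.0-fold higher in vehicle pools (4.59 ± 0.27; limma adjusted p = 3.51e-08) and 23.8-fold higher in odor pools (4.57 ± 0.27). Olfr329, next to it, had 11.65, 12.31, 11.51 and 11.63 against 13.83, 14.13, 14.03 and 14.06, the opposite order, and was 4.72-fold lower in vehicle pools (-2.24 ± 0.12, 1.10e-08) and 3.93-fold lower in odor pools. The fractions of both receptors were apart. Olfr325, the next measured receptor on the other side of Olfr328, was lower by -0.69 ± 0.20, a call that was lost under the cyclic loess, mature neuron and receptor scalings (limma adjusted p = 0.0710 to 0.651), under 3 other block settings (0.0719 to 0.121), and without vehicle pool 1 or 4.

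Lower receptors of this range were, with vehicle and odor differences, Olfr316 (-2.14 ± 0.20 and -1.82 ± 0.20), Olfr320 (-1.81 ± 0.17 and -1.84 ± 0.17), Olfr315 (-1.70 ± 0.28 and -2.40 ± 0.28), Olfr319 (-1.69 ± 0.19 and -2.20 ± 0.19) and Olfr318 (-1.44 ± 0.18 and -1.74 ± 0.18). Olfr317, between Olfr318 and Olfr316, was higher (2.02 ± 0.24 and 1.85 ± 0.24, with 3 of 4 arrays titled GFP- above the control median in each treatment), as were Olfr312 (2.05 ± 0.28 and 1.42 ± 0.28) and Olfr313 (at least 3.12-fold, and 2.83-fold) at the end of the range. Over the 3 ranges, the gene order gave 61 pairs of adjacent members. Both members were called in 26 of these pairs in vehicle pools, 16 in the same direction and 10 in opposite directions, and in 33 pairs in odor pools, 20 and 13. Adjacent members were thus found on the same side and on opposite sides of the sort. How these counts compare with those of pairs that are not adjacent, or of other receptors, was not examined here. Genes not analysed here can lie between the members of a pair.

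**Figure D2:**
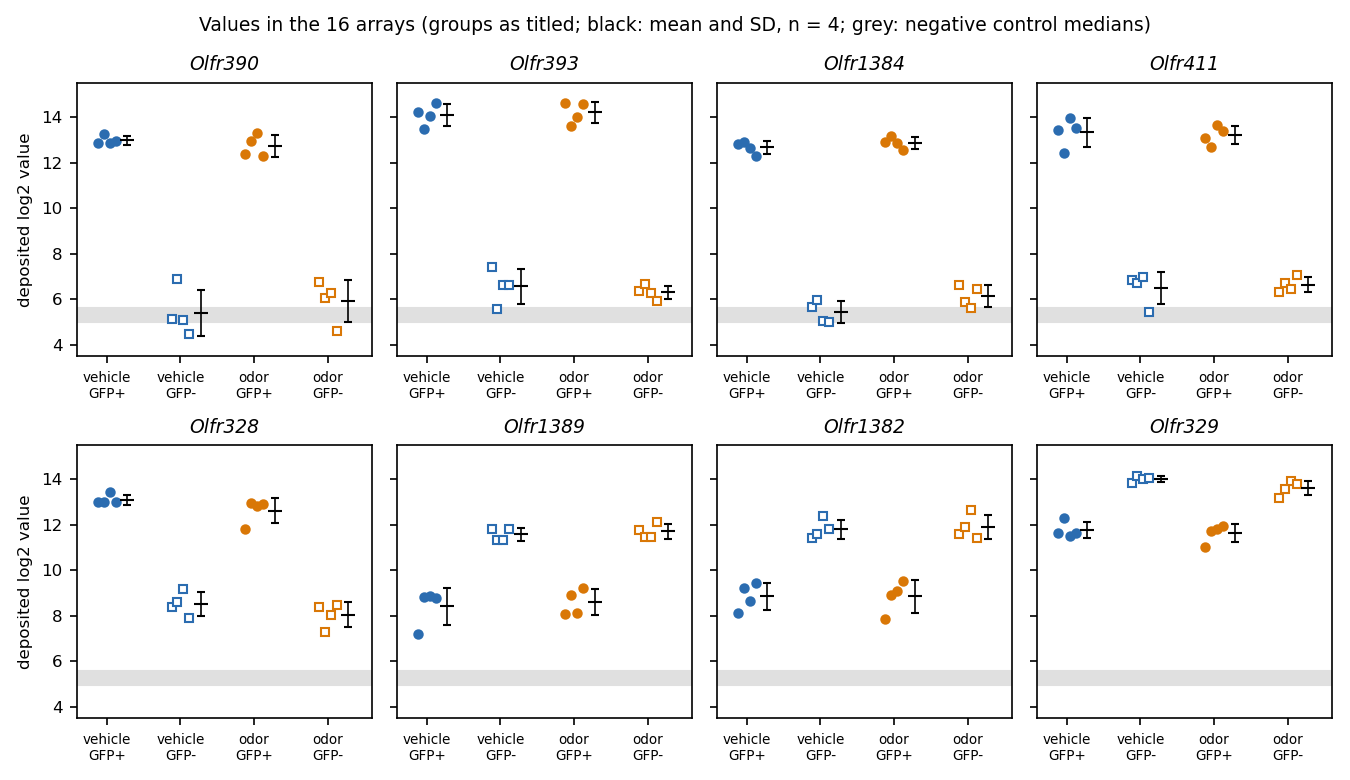
Deposited log2 values of 8 receptors in the 16 arrays, by titled fraction and treatment, with the mean and SD of 4 arrays in black and the range of the negative control medians in grey. Olfr390, Olfr393, Olfr1384, Olfr411 and Olfr328 are higher in all arrays titled GFP+ and Olfr1389, Olfr1382 and Olfr329 are lower in all of them, with no overlap in either treatment.

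Other genes of the receptor pathway were measured on the same arrays. Of 14 measured genes of olfactory signal transduction, 10 were lower and 0 higher in the arrays titled GFP+ in each treatment (median -0.41 and -0.35). Pde1c, a phosphodiesterase of the cilia, had -0.81 ± 0.09 and -0.80 ± 0.09, and Ano2, the chloride channel of the cilia, -0.48 ± 0.06 and -0.47 ± 0.06. Of 15 genes of receptor choice and trafficking, 5 were lower and 1 higher in vehicle pools and 6 and 1 in odor pools. The lower ones included the chaperone Rtp2 (-0.36 ± 0.08 and -0.28 ± 0.08) and the transcription factor Emx2 (-0.46 ± 0.11 and -0.32 ± 0.11), and the higher one was Lbr, the lamin B receptor (1.89 ± 0.24 and 1.99 ± 0.24), while Lhx2 stood at 0.00043 and -0.12 without passing. Of the 18 protein-coding genes other than receptors that flank the 3 ranges, 3 each side, 3 were higher and 2 lower in vehicle pools, where 12.3% and 13.6% of all genes were, and 4 and 3 in odor pools, where 12.8% and 14.7% were. The 3 higher in vehicle pools lie beside the range Olfr1371 to Olfr1397 and were 9930111J21Rik1 (3.98 ± 0.25), 9930111J21Rik2 (4.17 ± 0.27) and Tgtp2 (1.92 ± 0.25).

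Markers of other cells differed between the same fractions. All 10 neutrophil genes, all 10 microvillar genes, all 8 macrophage genes and 8 of 10 sustentacular genes were higher in the vehicle arrays titled GFP+. The mean log2 value of the neutrophil list was 14.08 to 15.19 there and 6.11 to 7.43 in those titled GFP-. Of 17 mature neuron genes 9 were lower and 0 higher, and their mean ran from 15.71 to 15.83 and from 16.03 to 16.08. Immature neuron genes gave 6 higher and 1 lower of 11, and progenitor genes 4 higher and 0 lower of 8. Of 7 genes of respiratory ciliated cells 4 were lower and 0 higher, with differences from -1.12 ± 0.20 for Ccdc113 to -0.30. All 3 red cell genes were higher. Of 10 genes linked to activity in sensory neurons, S100a5 among them, 7 were lower and 1 higher in vehicle pools and 7 and 0 in odor pools. The shares of all genes were 12.3% higher and 13.6% lower in vehicle pools, and 12.8% and 14.7% in odor pools. The part of these cells in the receptor differences was not tested.

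The odor pools, from other mice than the vehicle pools, repeated the order of the receptors. Over the 64, Pearson's r between vehicle and odor fraction differences was 0.991 and Spearman's rho 0.973, given as a description, since the receptors share arrays. Of the 64, 20 were higher in both treatments and 21 lower in both, 0 were called in opposite directions and 14 passed in neither. How these joint counts compare with those of all genes was not examined here. The median absolute gap between the treatments was 0.23, and the largest was 0.99, for Olfr1388. Calls in 1 treatment alone went to Olfr1378, Olfr1391 and Olfr395 (higher, odor), to Olfr1383, Olfr1388, Olfr323 and Olfr398 (lower, odor) and to Olfr1394 and Olfr382 (lower, vehicle). No difference between treatments passed for any of these 9. After housekeeping centring, Olfr1378, Olfr1391 and Olfr395 turned to -0.00068, -0.10 and -0.20 in odor pools. When 1 pool was left out, 5 of the 43 vehicle calls (Olfr1386, Olfr1394, Olfr325, Olfr384 and Olfr402) and 9 of the 48 odor calls (Olfr1378, Olfr1383, Olfr1386, Olfr1391, Olfr323, Olfr325, Olfr384, Olfr394 and Olfr395) were lost in at least 1 case, and none of these differences exceeded 1.13 in size.

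Whiskey lactone was compared with vehicle in 3 ways, and 0 of the 64 receptors passed in any of them. For the difference of the fraction differences, 0.00513% of all genes passed, which is 1 gene, Olfr221, a receptor outside the rule. Within the arrays titled GFP+ the share was also 0.00513%, the same receptor, and within those titled GFP- it was 0%. At an unadjusted p of 0.05, limma called 1, 7 and 4 of the 64 and 638, 951 and 1147 of the 19505 genes. The medians of the 64 were -0.097, -0.0044 and 0.11, beside -0.037, 0.026 and 0.051 for the receptors outside the rule. Leaving out 1 pool moved the first of these to between -0.24 (without vehicle pool 1) and -0.0030 (without vehicle pool 2), and that of the other receptors to between -0.12 and 0.034. In the arrays titled GFP+ the median of the 64 then ran from -0.081 to 0.11, and in those titled GFP- from 0.071 to 0.18.

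Olfr1388 had the smallest p for the difference between treatments. Its vehicle values were 7.57, 7.81, 7.69 and 7.73 in arrays titled GFP+ and 8.34, 7.79, 8.58 and 8.26 in those titled GFP-, and its odor values 6.56, 7.11, 7.05 and 7.75 against 8.66, 8.33, 9.35 and 8.25. Fractions were apart in the odor pools and overlapped in the vehicle pools. The fraction difference was -0.54 ± 0.26 in vehicle and -1.53 ± 0.26 in odor pools, which differ by -0.99 (95% interval -1.80 to -0.18, limma adjusted p = 0.999). Olfr323 (-0.87), Olfr319 (-0.52), Olfr1394 (0.62) and Olfr1378 (0.56) followed, with intervals that include 0. For Olfr393 the treatments differed by 0.37 (95% interval -0.38 to 1.13).

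Within the arrays titled GFP+, Olfr1378 had the smallest p. It stood at 5.82, 6.26, 5.80 and 5.97 in odor arrays and at 4.83, 5.56, 4.95 and 4.71 in vehicle arrays. All 4 odor arrays were above all 4 vehicle arrays, by 0.95 (95% interval 0.39 to 1.51, limma adjusted p = 0.782), at levels near the control medians. Olfr1394 (0.84), Olfr315 (-0.78), Olfr331 (-0.40) and Olfr382 (0.55) followed, and Olfr393 had 0.11 (-0.55 to 0.78).

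Within the arrays titled GFP-, Olfr1384 had 6.61, 5.88, 5.62 and 6.44 in odor and 5.68, 5.98, 5.03 and 5.01 in vehicle arrays, which overlap. The difference was 0.72 (95% interval 0.20 to 1.23, limma adjusted p = 0.763). Olfr398 (0.75), Olfr389 (0.71), Olfr323 (0.86) and Olfr329 (-0.40) followed, and Olfr393 had -0.26 (-0.92 to 0.41). That none passed does not show equal levels.

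**Figure D3:**
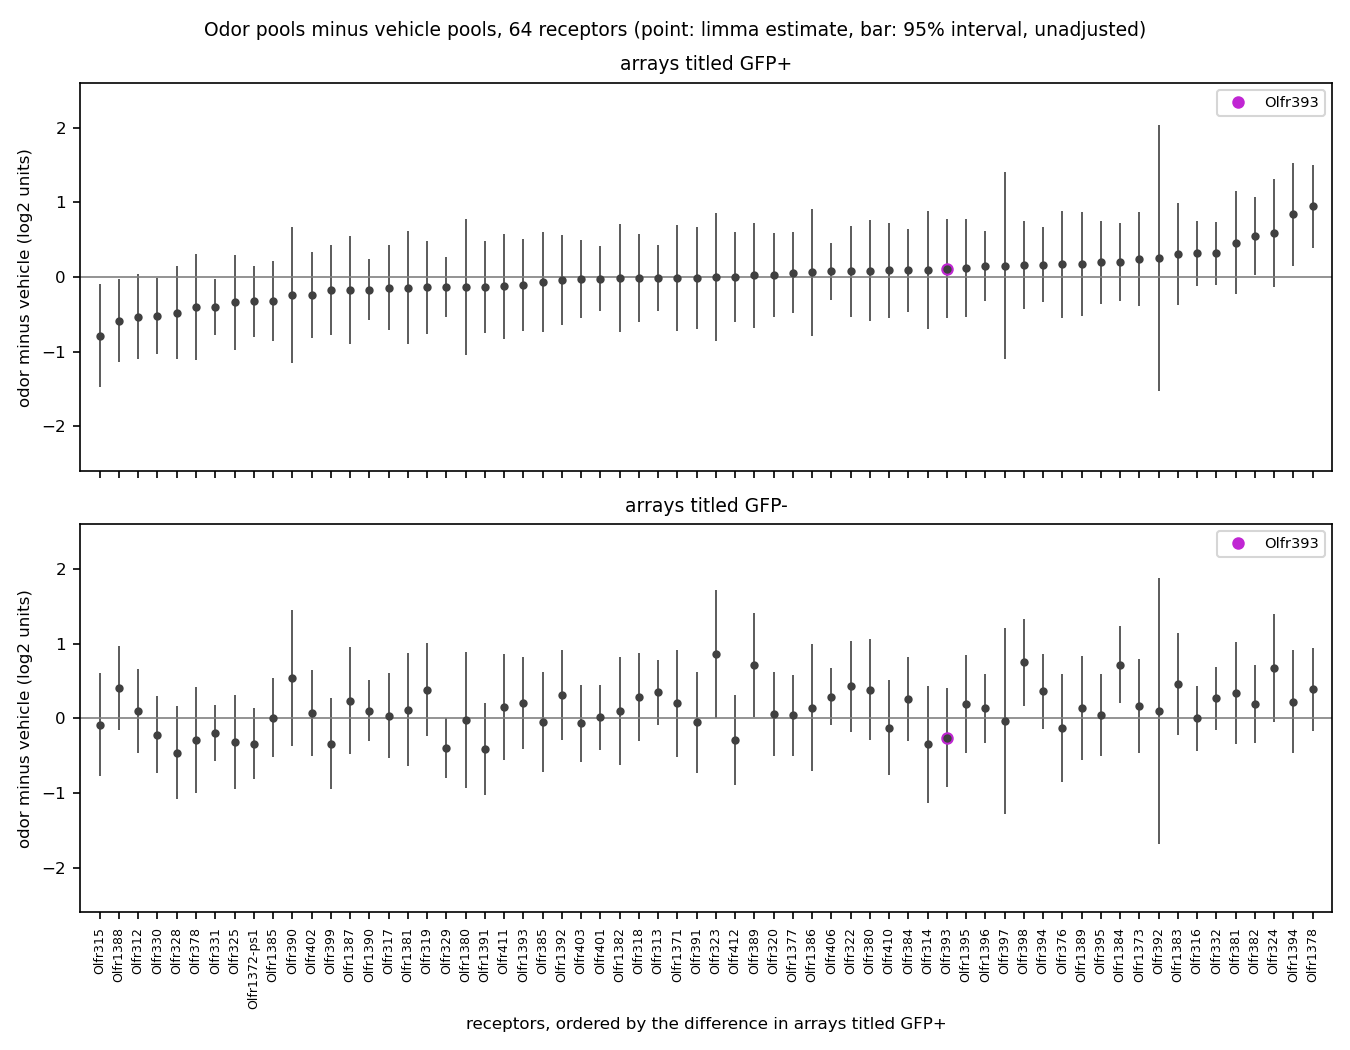
Odor minus vehicle (log2 units) of the 64 receptors in arrays titled GFP+ (upper) and titled GFP- (lower), as limma estimates with unadjusted 95% intervals and receptors ordered by the upper panel. Estimates run from -0.78 to 0.95 in the upper and from -0.46 to 0.86 in the lower panel, Olfr392 has the widest intervals, and none of the 64 passed after adjustment.

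Some receptors varied more between pools of a treatment than between treatments, and they varied alike in pools of the same replicate number. The labels do not say what a shared number means. Olfr392 had 10.26, 5.75, 11.09 and 8.56 in vehicle and 10.51, 6.90, 10.21 and 8.42 in odor arrays titled GFP-, for replicates 1 to 4, so that replicate 2 was lowest and replicates 1 and 3 highest in both treatments. Olfr1381 had 10.99, 10.77, 12.11 and 10.62 in vehicle and 11.17, 10.81, 12.28 and 10.68 in odor arrays titled GFP-, with replicate 3 highest in both. Olfr1386, in the same range, had 11.93, 10.85, 12.50 and 10.49 and 12.18, 10.91, 12.33 and 10.91, with replicates 1 and 3 high. In the arrays titled GFP+, Olfr397 had 8.61, 6.26, 6.89 and 9.29 in vehicle and 9.14, 6.75, 7.12 and 8.66 in odor arrays, with replicates 1 and 4 high. These 4 receptors were chosen after their values were seen.

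Over all 64, the same replicate number held the highest array in both treatments for 33 receptors (51.6%) in the arrays titled GFP- and for 30 (46.9%) in those titled GFP+, beside 47.1% and 34.0% of the receptors outside the rule and 32.2% and 32.4% of all genes. Replicate 3 was that number for 18 of the 33, among them 10 of the 22 receptors of the range Olfr1371 to Olfr1397. In the same arrays it was that number for 86 of 483 such receptors outside the rule and for 2109 of 6287 such genes. The SD of the fraction difference over 4 pools was 2.28 in vehicle and 1.77 in odor pools for Olfr392, against medians of 0.52 and 0.60 over the 64. Without replicate 1 or 3, the call of Olfr1386 (-1.05 ± 0.30 in vehicle and -1.13 ± 0.30 in odor pools) was lost in either treatment (-0.66 to -1.01, limma adjusted p = 0.0703 to 0.142).

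**Figure D4:**
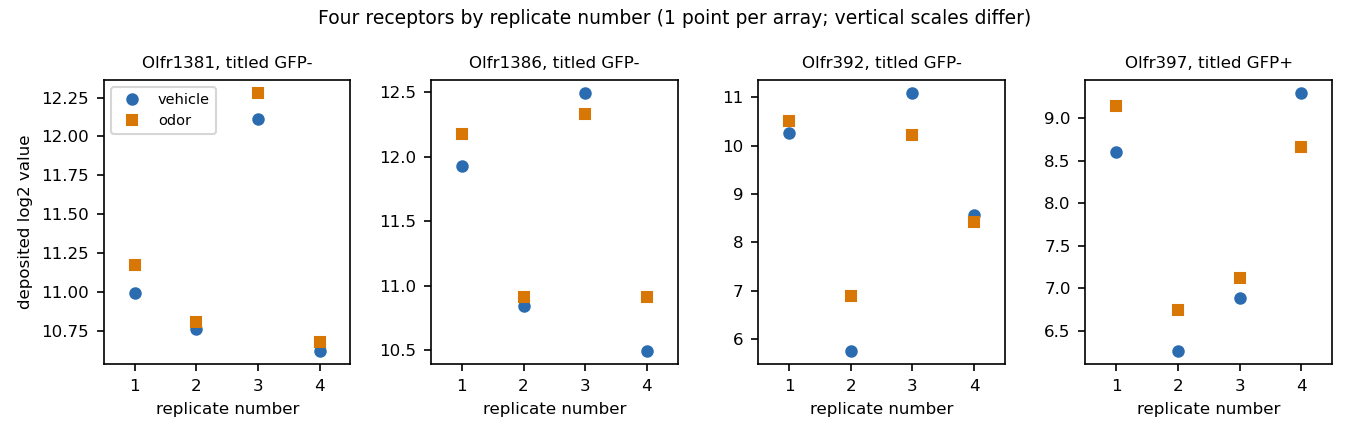
Deposited log2 values of Olfr1381, Olfr1386 and Olfr392 in arrays titled GFP- and of Olfr397 in arrays titled GFP+, by replicate number, with 1 point per array and vehicle and odor apart. Points of the same number lie close together, for instance 12.11 and 12.28 for Olfr1381 in replicate 3 and 5.75 and 6.90 for Olfr392 in replicate 2.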

How the data were processed

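Sorted olfactory mucosa cells of S100a5-tauGFP mice were profiled on 16 Affymetrix arrays from 50 to 100 ng of total RNA, per the labels' protocols. The deposited log2 values came from the authors' use of Affymetrix Expression Console, as the submitters' processing notes record. How they were summarized and normalized, and the genome build, is not given in the sources used here. A platform annotation, which can be old, gave 1 gene symbol for 19572 of 28846 features and several for 0, and the brightest of a gene's features was kept, which left 19505 genes. RefSeq names and gene order came from assembly GRCm38.p6. No detection call was used and no gene was left out as dim.

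Linear models were fitted with limma 3.58.1 (R 4.3.3), and eBayes moderated the variances along a trend. Tests were two-sided, adjusted over all genes by Benjamini-Hochberg and read at 0.05. Pool was a fixed term for fraction differences and for their difference between treatments, which left 6 residual degrees of freedom. For odor against vehicle within a fraction, pool was a random term (correlation 0.164), which left 12. Replicates are separate pools of 3 mice. A fold bound sets a group's mean against the negative control medians of the arrays where the other group was never above them. Scripts were tested on simulated data.

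Same-numbered odor and vehicle pools deviated together from their group means over all genes in the arrays titled GFP- (correlations 0.198 to 0.279 in 4 pairs), and in the arrays titled GFP+ in 3 of 4 pairs (0.170 to 0.410, the other pair 0.0787). The numbers therefore paired the pools in the arrays titled GFP- by this check, and a fit with that number as a block was run as an alternative.

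The named receptors were Olfr393, the 10 largest differences in each direction between fractions with 1 sign in all 4 pools, the extremes of each number range, the 5 smallest p of the other comparisons, and 5 adjacent pairs with opposite calls. The receptors of most identical proteins could not be named because no protein table was used here. Other receptors named beside them (neighbours, receptors called in 1 treatment, and those of the replicate number pattern and of window likeness) were chosen after their values were seen. The 64 receptors and the gene lists were chosen with earlier results of these data known. Alternatives were other scalings and blocks, a filter at the 30th percentile of mean signal, averaged features of a gene, no variance trend, only the arrays of a fraction, omission of the pseudogene, and leaving out each pool.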

Additional observations from a re-analysis of the deposited data

Results flagged for a closer look

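In 5 of 128 groups of 4 pools, 1 pool's fraction difference stood apart from the other 3, by a gap to the nearest one, relative to the group's range, above Dixon's 95% critical value. Chance flags about 1 in 20 such groups. Odor pool 1 was the one apart in 4 of these groups. For Olfr323 it had -2.73, the others -0.67 to -0.48, and its array titled GFP- was the only one of the 16 above the control median; without this pool the odor difference was -0.58 instead of -1.12 and no longer passed the threshold (limma adjusted p = 0.0543). For Olfr1380 odor pool 1 had -2.53 (others -0.58 to -0.29), for the pseudogene Olfr1372-ps1 -1.78 (others -0.84 to -0.72) and for Olfr401 -0.48 (others -0.10 to -0.06). In vehicle pools, Olfr384 had 0.086 in pool 3 against 1.32 to 1.44 in the others. The part of odor pool 1 in these values was not tested further.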

How the results depend on the processing

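Counts and medians of the 64 receptors moved with the scaling of the arrays, and each centring shifts all genes of an array alike. After median centring the median fraction difference was -0.61 in vehicle and -0.70 in odor pools. With the receptors outside the rule as the reference it was 0.33 and 0.24. With mature neuron genes as the reference it was 0.057 in vehicle and -0.039 in odor pools. Housekeeping centring gave medians of -1.04 and -1.15, with 40 lower in vehicle pools and 15 higher and 40 lower in odor pools. B2m, one of the 11 housekeeping genes, stood 4.54 higher in the vehicle arrays titled GFP+. Centring without it, chosen after seeing the data, gave -0.66 and -0.75, and 38 lower in odor pools.

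With the replicate number as a block (replicate block), 21 receptors were higher and 22 lower in vehicle pools and 22 and 24 in odor pools, sharing 42 and 45 calls with the fits without it, and 0 of the 64 passed in the comparisons of odor with vehicle. The block changed no call of a receptor named by the rule but that of Olfr325 (-0.69 in vehicle and -0.71 in odor pools, limma adjusted p = 0.0937 and 0.0812). In the arrays titled GFP- it raised the calls over all genes from 0 to 15. Leaving out 1 pool gave 20 higher and 19 to 25 lower receptors in vehicle pools and 19 to 24 and 21 to 26 in odor pools. The odor effect of Olfr393 then ranged from -0.090 to 0.31 in the arrays titled GFP+ and from -0.59 to 0.032 in those titled GFP-, around estimates within their own error of 0.

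Under all of up to 21 settings, 18 receptors stayed called higher and 16 lower in vehicle pools, and 15 and 17 in odor pools. Of the 64, 25 exceeded the 95th percentile of the negative controls in no array, and for them small differences are limited by background.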
